A study of Mus musculus musculus x M. m. domesticus and Mus musculus domesticus and Mus musculus with 12 samples.

Results

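Germ cells of the mouse testis produce PIWI-interacting RNAs (piRNAs), small RNAs that are loaded onto PIWI proteins and that silence transposable elements and cut other transcripts. The proteins that make and carry piRNAs gather in germ granules, which lie between mitochondria in spermatocytes and become the perinuclear chromatoid body of round spermatids. Males that lack any of several of these proteins stop making sperm during or after meiosis. Expression is described here for a set of 8 such genes chosen by their Ensembl identifiers, *Piwil1*, *Piwil2*, *Ddx4*, *Mael*, *Mov10l1*, *Tdrd6*, *Asz1* and *Ddx25*. The symbols are those given with the identifiers when the set was defined. Values for 7 of the 8 were among the 7000 genes of the expression table. *Tdrd6* (ENSMUSG00000040140_at), which encodes a Tudor domain protein of the chromatoid body, had no row in it and was not analysed here.

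The RNA came from whole testes of 12 males, 60 days old, with 3 males in each of 4 genotypes, all of them F1 offspring of wild-derived inbred strains and named with the mother first. *DxD* males had a LEWES/EiJ mother and a WSB/EiJ father, both strains of *M. domesticus*. *MxM* males had a PWK/PhJ mother and a CZECHII/EiJ father, both of *M. musculus*. The reciprocal hybrids were *DxM* (LEWES/EiJ mother, PWK/PhJ father) and *MxD* (PWK/PhJ mother, LEWES/EiJ father). *MxD* males are sterile, and males of the other 3 genotypes are fertile. *DxD* and *MxM* males stand for the 2 species but did not sire or bear the hybrids, and they carry WSB/EiJ or CZECHII/EiJ chromosomes that the hybrids lack. Each male was hybridised to 1 oligonucleotide array, and values are log2 expression after quantile normalization by the authors, so a difference of 1 is a doubling. Levels are compared between males for the same gene and never between genes. In whole tissue, fewer cells of a type and less RNA per cell cannot be told apart.

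Same-numbered arrays were related in most pairs of genotypes. When each male was expressed as its distance from its genotype mean, *MxD* males and fertile males with the same number correlated over the 7000 genes with r from 0.151 to 0.756 (genes are not independent replicates). Among fertile genotypes the lowest r was 0.0744 between *DxD* and *MxM* and -0.0511 between *DxM* and *MxM*. The labels do not say what the replicate number marks. A test with the replicate number as a block is therefore given beside the test without it where it changed a call. A gene is called different at a limma adjusted p under 0.05, with Benjamini-Hochberg adjustment over all 7000 genes. Data were also simulated with independent arrays, 1 spread per gene for all genotypes and 200 changed genes. There the unblocked test recovered 13.4% of changes of 0.25, 56.7% of changes of 0.50 and 95.5% of changes of 1.00 between *MxD* and *DxM*. The simulation lacked the correlation of same-numbered males and the unequal variances of the genotypes, so these rates may not hold for the real arrays. It also changed only 200 of 7000 genes. In the real data 6.50% of all genes were called between *MxD* and *DxM*, and up to 31.9% in the other comparisons. The adjusted threshold was thus not matched to them. Of the 42 differences of the 7 genes, 36 were smaller than 0.25, the smallest simulated size. The within-genotype variance averaged over all genes was 0.0879 in *MxM* and 0.0147 to 0.0278 elsewhere. The median SD of the 7 genes was 0.122 in *MxM*, above *DxD* (0.0833) and *DxM* (0.100) and below *MxD* (0.142).

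None of the 7 genes was called lower in the sterile hybrid than in any fertile genotype, with or without the block. Of all genes, 3.50% were called lower in *MxD* than in *DxM*, 15.1% than in *DxD* and 17.3% than in *MxM*, and with the block these shares were 8.83%, 22.5% and 24.0%. Between the reciprocal hybrids, *MxD* minus *DxM*, the 7 differences ran from -0.054 to 0.20 with a median of 0.10, and the median over all genes was -0.000425. The mean was higher in *MxD* for 6 of the 7 and lower for *Piwil1*. Without the block 0 of the 7 were called, where 6.50% of all genes were, and 1 of the 7 had an unadjusted limma p under 0.05, as had 21.8% of all genes. With the block *Piwil2* alone was called, where 17.2% of all genes were. The reciprocal hybrids inherited the same strains through opposite parents, so they share their autosomal alleles and differ in their sex chromosomes, mitochondria and parent of origin.

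**Figure D1:**
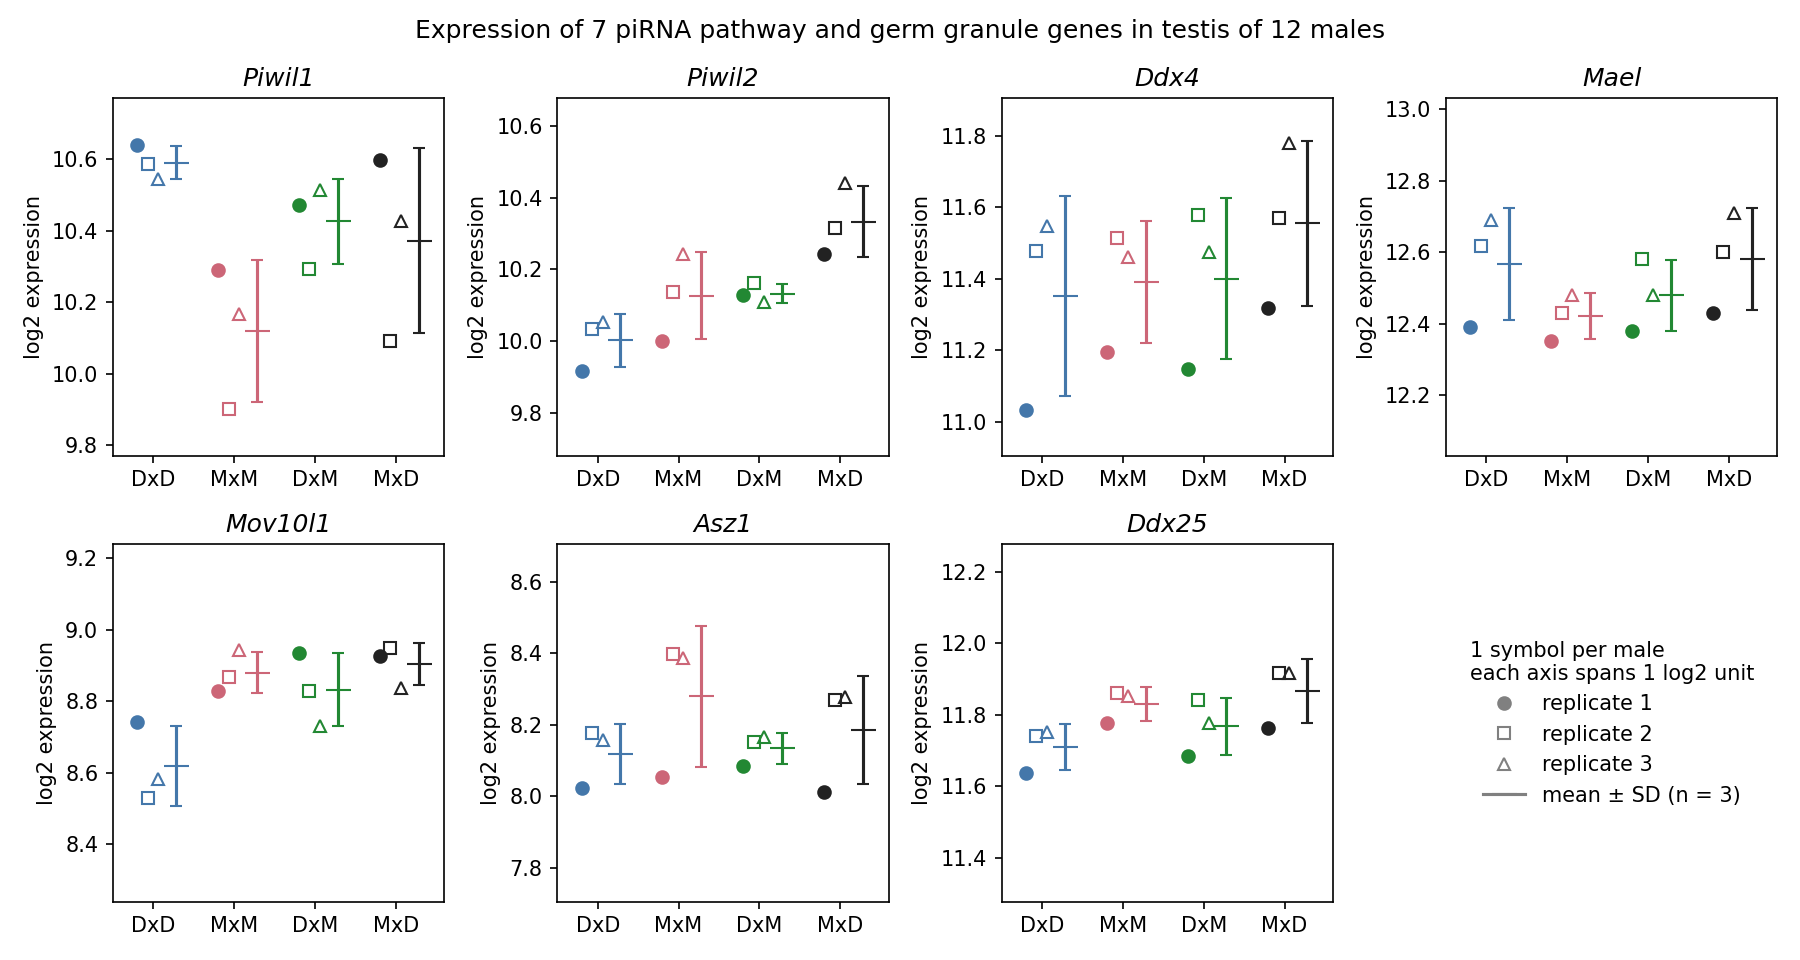
Log2 expression (y axis, spanning 1 log2 unit in each panel) of the 7 measured genes by genotype (x axis), with 1 symbol per male, the symbol's shape giving the replicate number, and bars for mean ± SD (n = 3). The *MxD* males had the highest mean of *Piwil2*, at 10.33, and the replicate 1 males were lowest in every genotype for *Ddx4*, *Mael*, *Asz1* and *Ddx25*.

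The PIWI genes come first. *Piwil2* (ENSMUSG00000033644_at) encodes MILI, the PIWI protein present from fetal germ cells and spermatogonia onwards. Its values were 10.24, 10.32 and 10.44 in the *MxD* males, 10.13, 10.16 and 10.11 in the *DxM* males, 10.00, 10.14 and 10.24 in the *MxM* males, and 9.92, 10.03 and 10.05 in the *DxD* males. The *MxD* males lay above every *DxM* and every *DxD* male, and the lowest of them was level with the highest *MxM* male. *Piwil2* was 0.33 higher in *MxD* than in *DxD*, or 1.26-fold (standard error 0.080, 95% interval 0.16 to 0.51, limma adjusted p = 0.00915). For this difference the adjusted p of the methods' t-test was 0.0733 when variances were not assumed equal. Relative to *DxM* it was 0.20 higher (95% interval 0.026 to 0.38), with a limma adjusted p of 0.170 without the block and 0.0459 with it. Relative to *MxM* it was 0.21 higher (95% interval 0.031 to 0.38), with a limma adjusted p of 0.0737 without the block and 0.0191 with it. With the block *Piwil2* was thus called higher in *MxD* than in each of the 3 fertile genotypes. Of all genes, 17.2% (against *DxM*), 46.0% (against *DxD*) and 43.9% (against *MxM*) were called in either direction with the block. The share of all genes called in all 3 comparisons, which share the *MxD* males, was not computed. With single males left out, the difference from *MxM* ran from 0.14 to 0.27 (limma adjusted p from 0.0309 to 0.238 without the block). It passed only without *MxM* replicate 3, the male level with the lowest *MxD* male, where it was largest. From lowest to highest the genotype means were 10.00 (*DxD*), 10.13 (*MxM*), 10.13 (*DxM*) and 10.33 (*MxD*). The 3 fertile genotypes were not called different from each other.

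*Piwil1* (ENSMUSG00000029423_at) encodes MIWI, the PIWI protein of pachytene spermatocytes and round spermatids. It measured 10.64, 10.59 and 10.55 in the *DxD* males and 10.29, 9.90 and 10.17 in the *MxM* males, without overlap. The difference between the species was 0.47, or 1.39-fold higher in *DxD* (standard error 0.13, 95% interval 0.18 to 0.76, limma adjusted p = 0.0175). It was the largest difference of the 7 genes in any comparison. Without *MxM* replicate 2, the lowest of the 12 males, it was 0.36 (limma adjusted p = 0.0721), and without *DxD* replicate 1 it was 0.45 (limma adjusted p = 0.0559). The methods' t-test gave an adjusted p of 0.165 with unequal and 0.0686 with equal variances. The array was designed mainly on sequence of *M. domesticus* origin, so less transcript and weaker hybridisation of *M. musculus* alleles cannot be told apart for this gene.

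Both hybrids had *Piwil1* means between those of the 2 species. The values were 10.47, 10.29 and 10.51 in *DxM* and 10.60, 10.09 and 10.43 in *MxD*, and the males of the reciprocal hybrids overlapped across most of their range. *MxD* minus *DxM* was -0.054 (95% interval -0.34 to 0.23, limma adjusted p = 0.874). The spread was widest in *MxD*, with an SD of 0.26 against 0.047 in *DxD*. Relative to *MxM*, *Piwil1* was 0.25 higher in *MxD*, with a limma adjusted p of 0.169 without the block and 0.0404 with it. With single males left out, this difference ran from 0.14 to 0.39 (limma adjusted p from 0.0346 to 0.467 without the block). It passed only without *MxD* replicate 2, where it was largest. In order, *DxD* (10.59), *DxM* (10.43), *MxD* (10.37) and *MxM* (10.12) had neighbouring means that were not called different without the block. With it the last pair was.

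*Mov10l1* (ENSMUSG00000015365_at), the RNA helicase that feeds long piRNA precursors into processing, had its lowest mean in *DxD*. The *DxD* males measured 8.74, 8.53 and 8.58. The *MxM* males measured 8.83, 8.87 and 8.94, the *DxM* males 8.94, 8.83 and 8.73, and the *MxD* males 8.93, 8.95 and 8.84. All *MxM* and *MxD* males were above all *DxD* males, and 1 *DxM* male overlapped with *DxD* replicate 1. *Mov10l1* was 0.26 lower in *DxD* than in *MxM* (standard error 0.079, 95% interval of *DxD* minus *MxM* -0.43 to -0.087, limma adjusted p = 0.0264). It was 0.29 higher in *MxD* than in *DxD*, or 1.22-fold (standard error 0.079, 95% interval 0.11 to 0.46, limma adjusted p = 0.0180). Both calls were lost when certain single males were left out. For the species difference the limma adjusted p was 0.111 without *DxD* replicate 2, 0.0885 without *DxD* replicate 3, 0.0582 without *MxM* replicate 2 and 0.0719 without *MxM* replicate 3. For *MxD* and *DxD* it was 0.0794 without *DxD* replicate 2, 0.0648 without *DxD* replicate 3 and 0.0565 without *MxD* replicate 2. With the methods' t-test (unequal and equal variances) the adjusted p was 0.142 and 0.0846 for the species difference and 0.109 and 0.0633 for *MxD* and *DxD*. The species call was also lost with limma on these genotypes only (adjusted p = 0.0614) and with arrays centred on the median of genes of chromosomes 1 to 5 (adjusted p = 0.0503). *DxM* was 0.21 above *DxD*, which did not pass (limma adjusted p = 0.110).

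The *Mov10l1* means of both hybrids were closer to *MxM* than to *DxD*. *MxD* minus *MxM* was 0.024 (95% interval -0.15 to 0.20) and *DxM* minus *MxM* was -0.047 (95% interval -0.22 to 0.13). *MxD* minus *DxM* was 0.072 (95% interval -0.10 to 0.24, limma adjusted p = 0.678). The ordered means were 8.62 (*DxD*), 8.83 (*DxM*), 8.88 (*MxM*) and 8.90 (*MxD*), and no neighbours in this order were called different.

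The remaining genes encode structural and RNA-handling proteins of the granules. *Ddx4* (ENSMUSG00000021758_at) encodes mouse Vasa homologue, a DEAD-box helicase found in germ granules of all germ cell stages and widely used as a germ cell marker. Its values were 11.32, 11.57 and 11.78 in *MxD*, 11.15, 11.58 and 11.48 in *DxM*, 11.03, 11.48 and 11.55 in *DxD*, and 11.20, 11.52 and 11.46 in *MxM*. In each genotype replicate 1 was the lowest, by 0.29 to 0.48 below the mean of the other males, and the genotypes overlapped. *MxD* was 0.20 above *DxD*, with a limma adjusted p of 0.385 without the block and 0.0393 with it. The standard error of this difference was 0.17 without the block and 0.070 with it. *MxD* minus *DxM* was 0.15 (95% interval -0.21 to 0.52, limma adjusted p = 0.666 without the block and 0.156 with it).

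*Mael* (ENSMUSG00000040629_at), on chromosome 1, encodes Maelstrom, a granule protein needed for transposon silencing in spermatocytes. The *MxD* males measured 12.43, 12.60 and 12.71, the *DxM* males 12.38, 12.58 and 12.48, the *DxD* males 12.39, 12.62 and 12.69, and the *MxM* males 12.35, 12.43 and 12.48. The genotypes overlapped in every comparison, and none was called with or without the block. *MxD* minus *DxM* was 0.10 (95% interval -0.12 to 0.32, limma adjusted p = 0.625). Relative to *MxM* the *MxD* mean was 0.16 higher (limma adjusted p = 0.243 without the block and 0.0542 with it).

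*Asz1* (ENSMUSG00000010796_at) encodes GASZ, a protein of the outer mitochondrial membrane around which intermitochondrial granules assemble. It measured 8.01, 8.27 and 8.28 in *MxD*, 8.08, 8.15 and 8.17 in *DxM*, 8.02, 8.18 and 8.16 in *DxD*, and 8.05, 8.40 and 8.39 in *MxM*. The highest values were those of *MxM* replicates 2 and 3. All genotypes overlapped, *DxD* and *DxM* also without their replicate 1 males. *MxD* minus *DxM* was 0.052 (95% interval -0.18 to 0.28, limma adjusted p = 0.848). *DxD* minus *MxM* was -0.16 (limma adjusted p = 0.277). With single males left out it ran from -0.27 to -0.10 (limma adjusted p from 0.0409 to 0.569), and it passed only without *MxM* replicate 1.

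*Ddx25* (ENSMUSG00000032101_at) encodes GRTH, a gonadotropin-regulated helicase that carries messenger RNA to the chromatoid body of round spermatids. Its values were 11.76, 11.92 and 11.92 in *MxD*, 11.68, 11.84 and 11.78 in *DxM*, 11.64, 11.74 and 11.75 in *DxD*, and 11.78, 11.86 and 11.85 in *MxM*. Every *MxD* and every *MxM* male was above all *DxD* males, and the hybrids overlapped. *MxD* was 0.16 above *DxD*, or 1.11-fold, with a limma adjusted p of 0.123 without the block and 0.0215 with it. *MxD* minus *DxM* was 0.099 (95% interval -0.059 to 0.26, limma adjusted p = 0.481). The spread over the 12 males was the smallest of the 7 genes, with an SD of 0.087.

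**Figure D2:**
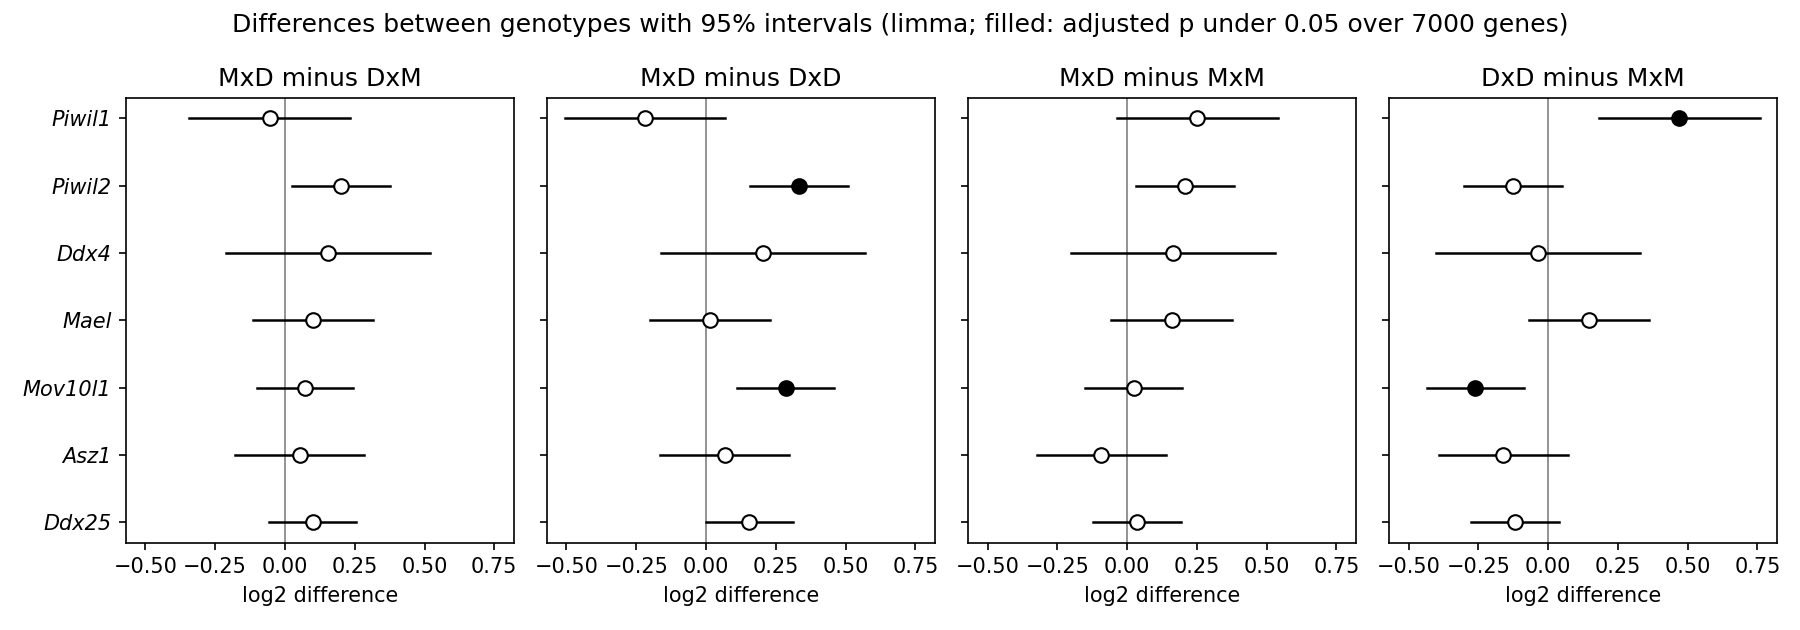
Log2 difference (x axis) of each of the 7 genes (y axis) in 4 comparisons, with 95% intervals from limma without the block and filled circles for adjusted p under 0.05 over 7000 genes. No gene was called between *MxD* and *DxM* or between *MxD* and *MxM*, *Piwil2* and *Mov10l1* were higher in *MxD* than in *DxD*, and *Piwil1* and *Mov10l1* differed in opposite directions between *DxD* and *MxM*.

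The counts of called genes over the set follow, each with the share of all genes. Between *MxD* and *DxD*, 2 of 7 genes were called (28.6%), both higher in *MxD*, where 31.0% of all 7000 genes were called and 15.9% were called higher. With the block 4 of the 7 were called, *Piwil2*, *Mov10l1*, *Ddx4* and *Ddx25*, all higher in *MxD*. Of all genes 46.0% were then called in either direction, and 22.5% were called lower in *MxD*. Between *MxD* and *MxM* 0 of 7 were called without the block (30.3% of all genes, and 1 of 7 against 41.5% at an unadjusted limma p under 0.05). With the block *Piwil1* and *Piwil2* were called higher in *MxD*. Of all genes 43.9% were then called in either direction, and 24.0% were called lower in *MxD*. Between *DxD* and *MxM* 2 of 7 were called (28.6%), *Piwil1* higher and *Mov10l1* lower in *DxD*, where 31.9% of all genes were called, and the same genes were called with the block (44.4% of all genes). The fertile hybrid differed from *DxD* at 0 of 7 genes (12.1% of all genes) and from *MxM* at 0 of 7 (16.9% of all genes), with 1 of 7 in each at an unadjusted limma p under 0.05 (25.5% and 29.5% of all genes). With the block these counts were 0 of 7 (22.6% of all genes) and 1 of 7 (27.4% of all genes). The groups did not overlap at 1 of 7 genes between *MxD* and *DxM* (26.4% of all genes), at 3 of 7 between *MxD* and *DxD* (50.5%) and at 0 of 7 between *MxD* and *MxM* (37.9%). Among fertile genotypes they did not overlap at 3 of 7 genes between *DxD* and *MxM* (44.9%), 2 of 7 between *DxM* and *DxD* (37.7%) and 1 of 7 between *DxM* and *MxM* (30.3%). The 3 comparisons with *MxD* share the *MxD* males. The median of the 7 differences was 0.16 relative to *DxD* and 0.16 relative to *MxM*, and the medians over all genes were -0.0077 and -0.0091.

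Cell type classes of other genes shifted between the hybrids. The study's gene table assigns genes to the testis cell population with the highest induction in an independent experiment, and 1102 of the 1997 rows used here have such a class. These rows hold genes of chromosomes 1 to 5 only, and the other 5001 rows were not used here, so the classes below are parts of the whole classes. Relative to *DxM*, the median difference of *MxD* was -0.20 for 269 postmeiotic genes (quartiles -0.33 and -0.093), -0.044 for 324 meiotic genes (quartiles -0.13 and 0.035), 0.16 for 367 mitotic genes (quartiles 0.052 and 0.27) and 0.11 for 142 somatic genes. The table lists *Mael*, on chromosome 1, and *Piwil1*, on chromosome 5, as meiotic, and the other 5 genes are not in the rows used. The set was not tested against any class. *Mael*, at 0.10, was above the upper quartile of the meiotic genes in this comparison, and *Piwil1*, at -0.054, was between the quartiles. The same order of class medians was seen relative to *DxD*, at -0.22 for postmeiotic, -0.097 for meiotic, 0.17 for somatic and 0.26 for mitotic genes. It was also seen relative to *MxM*, at -0.22 for postmeiotic, -0.061 for meiotic, 0.045 for somatic and 0.19 for mitotic genes. From histology, the paper reports a large reduction of postmeiotic cells in *MxD* testes. The part of these shifts in the differences of the 7 genes was not tested.

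**Figure D3:**
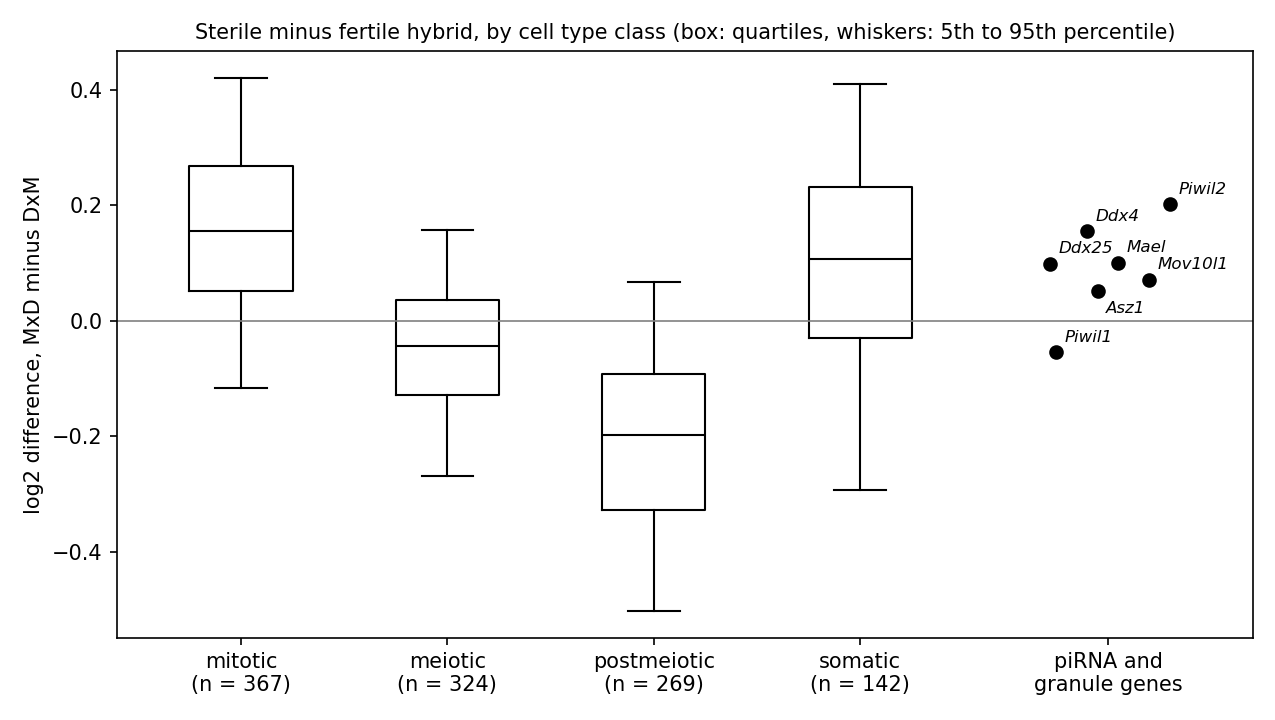
Log2 difference between the reciprocal hybrids, *MxD* minus *DxM* (y axis), for genes of chromosomes 1 to 5 in 4 cell type classes (boxes, quartiles with median; whiskers, the 5th to the 95th percentile) and for the 7 genes described here (points). The postmeiotic median was -0.20 and the mitotic median 0.16, and the 7 genes lay between -0.054 and 0.20.

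Much of the spread within genotypes followed the replicate number. *Ddx4*, *Mael*, *Asz1* and *Ddx25* were lowest in the replicate 1 male in all 4 genotypes, a pattern also shown by 20.4% of all genes. *Piwil2* was lowest in replicate 1 in *DxD*, *MxM* and *MxD*, where replicate 1 minus the mean of the other males was -0.19 to -0.13, and in *DxM* this distance was -0.0064. *Piwil1* went the other way, with replicate 1 above the mean of the other males by 0.069 to 0.34. *Piwil1* was instead lowest in replicate 2 in *MxM*, *DxM* and *MxD*. *Mov10l1* was highest in replicate 1 in *DxD* and *DxM* and lowest there in *MxM*. Over all genes the median of the same distance was between -0.065 and -0.0088. The distance for *Ddx4*, from -0.48 in *DxD* to -0.29 in *MxM*, was larger than any difference between genotype means of this gene, of which the largest was 0.20. What the replicate number stands for was not tested.

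**Figure D4:**
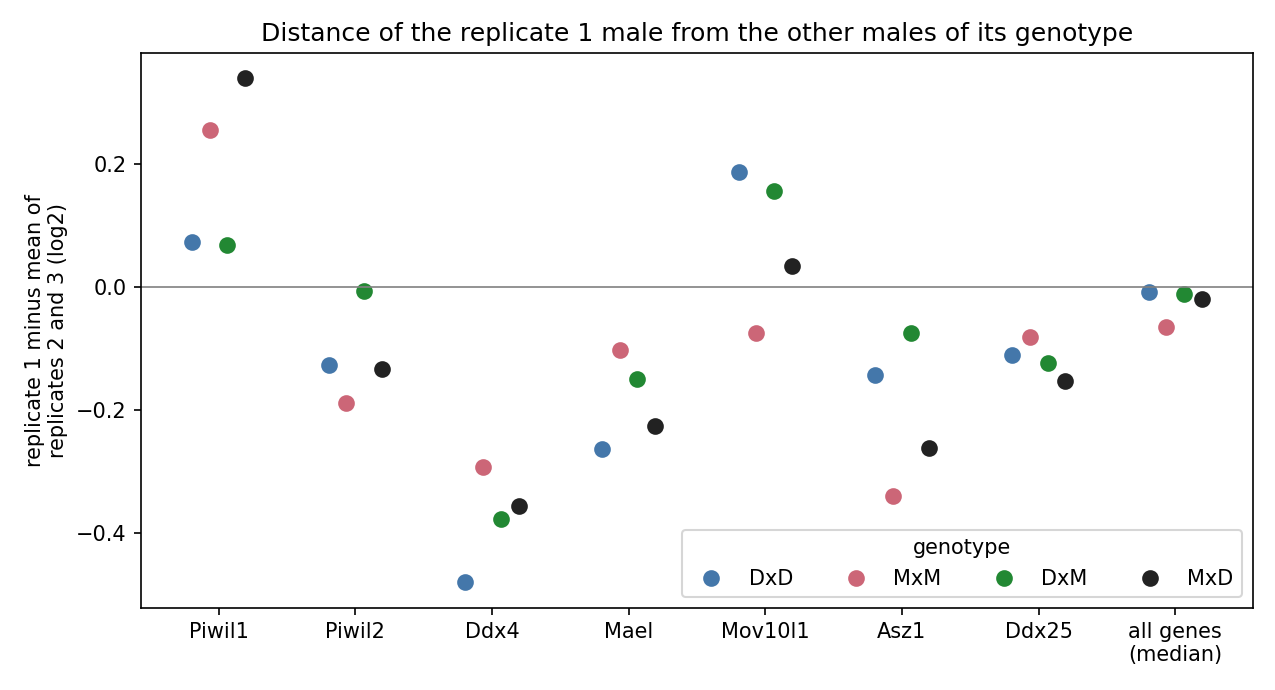
Log2 value of the replicate 1 male minus the mean of the replicate 2 and 3 males (y axis) for the 7 genes and for the median of all genes (x axis), with 1 point per genotype. *Ddx4*, *Mael*, *Asz1*, *Ddx25* and *Piwil2* were below 0 in all 4 genotypes, *Piwil2* at only -0.0064 in *DxM*, and *Piwil1* was above 0 in all 4.

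The distances between the expression profiles of the 7 genes over the 12 males differed from pair to pair. Profiles were centred on each gene's mean and compared by their root mean square difference on the log2 scale. They were not scaled, so this distance depends on the size of a gene's spread as well as on its pattern. The SD over the 12 males was largest for *Piwil1* (0.231) and smallest for *Ddx25* (0.0871). The closest pair was *Asz1* and *Ddx25*, at 0.0846, and the most distant was *Piwil1* and *Ddx4*, at 0.347. *Piwil1* was the outermost gene on this measure, since its nearest member, *Mael*, was 0.243 away and 1742 of the 6999 other genes were closer to it. For *Asz1* and *Ddx25*, 101 and 254 of the 6999 other genes were closer than their partner was. For *Piwil2*, *Mael* and *Mov10l1* the nearest member was *Ddx25*, and 164, 337 and 521 of the other genes were closer. For *Ddx4* it was *Mael*, and 189 were closer. Whether these ranks differ from those of other sets of genes was not tested. For none of the 7 was the nearest gene another member of the set. Nearly all of the 6999 candidates lay outside the set, so this outcome was likely in any case and does not bear on a shared profile. The genes nearest to the mean profile of the 7 were ENSMUSG00000030662, at 0.0281, and ENSMUSG00000000804, at 0.0313, for which the files give no symbol. All these distances share the same 12 arrays and their replicate structure.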

How the data were processed

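Per the paper's methods, the authors used PLIER to turn the probe signals into 1 value for each Ensembl gene, with probes grouped by version 11 of the BRAINARRAY chip description files. Only genes detected above mismatch signal in every male were retained, and the arrays were then quantile normalized. The deposited values are log2 expression. Their sorted values were the same in all 12 arrays, with a median of 8.14, and no 2 arrays were identical. The number of arrays is 1 limit on precision. Array signals have no sequencing depth. Whether males of a genotype came from separate litters is not stated, so p-values measure the spread between these males.

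Genotypes and replicate numbers came from the labels. Differences were tested two-sided with limma 3.58.1 (lmFit and eBayes) in R 4.3.3 over 7000 genes, with 1 coefficient per genotype, all 12 males in the fit and no block. The replicate number as a block was an alternative. Same-numbered males of *MxD* and each fertile genotype, and of *DxM* and *DxD*, had deviations that correlated at over 0.1 for every number (lowest 0.151), so these count as paired from the data. Between *DxD* and *MxM* the lowest correlation was 0.0744 and between *DxM* and *MxM* -0.0511, so these do not. The labels give no pairing, and this rule was applied to the same values that were then tested with the block. Correlations between males of different numbers were not computed as a reference. The alternatives also included the t-test of the methods (unequal or equal variances), limma on only the genotypes compared, eBayes with trend and robust, a fit without the dimmest 25% of genes, a second quantile normalization, centring on autosomal genes of the study's gene table (the rows used cover chromosomes 1 to 5), other thresholds and omission of single males. Omission of all replicate 1 arrays and a block for replicate 1 against the others were added after seeing the data. Simulated arrays in which 200 genes were given known changes were used to test the scripts.

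Members, lists and tests were chosen with earlier results of these data known. All 8 members were to be named, with the genes nearest in profile. Lists of other piRNA pathway genes and of cell type markers could not be applied, since no table used here pairs the identifiers with symbols. For the same reason no sequences are shown. The plots were made in Python 3.11.15 (matplotlib 3.10.9).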

Additional observations from a re-analysis of the deposited data

How the results depend on the processing

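The 42 differences (7 genes in 6 comparisons) were recomputed under 24 alternatives. Of the 1008 values, 945 kept direction and side of the threshold, 21 lost the call, 20 gained one and 22 changed sign, all 22 at differences that were not called. The number of the 7 genes called was as follows. Between *DxD* and *MxM* it was 2 as reported, 0 with the methods' t-test of either form and at an adjusted p under 0.01, 1 (*Piwil1*, with *Mov10l1* lost) with limma on these genotypes only and with arrays centred on genes of chromosomes 1 to 5, 3 without the replicate 1 arrays (*Asz1* gained, limma adjusted p = 0.0449), and 0 to 3 with single males left out (3 without *MxM* replicate 1, 0 without *MxM* replicate 2, and 1 without any one *DxD* male or *MxM* replicate 3). Between *MxD* and *DxD* it was 2, against 0 and 1 with the methods' t-test with unequal and equal variances, 1 at an adjusted p under 0.01, 4 with the replicate block, 4 with replicate 1 against the others as a block, and 1 to 2 with single males left out (1 without *DxD* replicate 2, *DxD* replicate 3 or *MxD* replicate 2). Between *MxD* and *DxM* it was 0, against 1 with the replicate block, 1 with the block for replicate 1 and 1 at an unadjusted p under 0.05. Between *MxD* and *MxM* it was 0, against 2 with the replicate block, 2 with the block for replicate 1, 1 at an unadjusted p under 0.05 and 0 to 1 with single males left out (1 without *MxM* replicate 3 or *MxD* replicate 2). Between *DxM* and *DxD* it was 0, against 1 with the block for replicate 1 and 1 at an unadjusted p under 0.05. Between *DxM* and *MxM*, whose numbers do not pair, it was 0, against 1 (*Piwil1*) with the replicate block and 1 at an unadjusted p under 0.05. The replicate block ended no call, and beyond the calls named here and in the report it changed none. The causes of these changes were not tested, except that the block takes up spread shared by same-numbered males.

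The sign changes were as follows. Values of reversed sign reached 0.12, for *Ddx4* (*DxD* minus *MxM*, -0.038 as reported) without *DxD* replicate 1. With centring on genes of chromosomes 1 to 5, *DxM* minus *DxD* was -0.0087 for *Asz1* and *MxD* minus *DxD* was -0.022 for *Mael*. Without the replicate 1 arrays, *Asz1* was at -0.0080 (*DxM* minus *DxD*), *Ddx4* at 0.025 (*DxD* minus *MxM*), *Mov10l1* at -0.012 (*MxD* minus *MxM*) and *Piwil2* at -0.056 (*DxM* minus *MxM*). With single males left out, the ranges that crossed 0 were -0.033 to 0.043 for *Asz1* and -0.11 to 0.17 for *Ddx4* (*DxM* minus *DxD*), -0.14 to 0.12 for *Ddx4* (*DxD* minus *MxM*), -0.087 to 0.14 for *Ddx4*, -0.099 to 0.0033 for *Mov10l1* and -0.058 to 0.064 for *Piwil2* (*DxM* minus *MxM*), -0.074 to 0.089 for *Mael* (*MxD* minus *DxD*), -0.00055 to 0.058 for *Mov10l1* (*MxD* minus *MxM*) and -0.17 to 0.086 for *Piwil1* (*MxD* minus *DxM*). The alternatives planned for the list of other pathway genes were not run, because that list could not be matched. The centring was planned on all autosomal genes of the study's table and used those of the rows in hand.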
